A study of Triticum aestivum with 36 samples.

Results

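Alpha-gliadin genes were represented by 9 of the 61290 probe sets on the Affymetrix Wheat Genome Array. They are the probe sets whose function is given as alpha-gliadin or alpha/beta-gliadin in the study's list of 236 probe sets with at least a 10-fold difference between good and poor chapatti making varieties. All 9 passed the filter on low values. RNA was taken from whole developing grains (caryopses) of 4 bread wheats, C306, Lok1, Sonalika and WH291, at 3 stages, which were 7, 14 and 28 DAA (days after anthesis). Each variety had 3 biological replicates per stage, which makes 36 arrays in all. The study classes C306 and Lok1 as good for making chapatti, an unleavened flat bread, and Sonalika together with WH291 as poor. All plants were grown at 1 farm in 1 season, and the labels give no treatment, so a group is a variety at a stage. Each quality class rests on 2 varieties, and about 10 caryopses of a spike were pooled for an RNA sample.

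Alpha-gliadins are monomeric prolamins of the starchy endosperm. They are made on the rough endoplasmic reticulum, folded by disulphide bonds within the chain and stored in protein bodies, and together with the other gliadins they give gluten its viscosity. Their genes lie in tandem arrays at the Gli-2 loci of the A, B and D genomes, with many close copies and pseudogenes, and they encode many of the peptides recognised in coeliac disease.

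The array's annotation named a gene for 5 of the 9 probe sets, and these are 4 different genes. Ta.24114.10.S1_x_at and Ta.6699.1.S1_at both belong to LOC543212, a Gli-D2 gene. Ta.24114.1.S1_x_at belongs to LOC543210, with names of Gli-D2 as well, Ta.24114.15.A1_x_at to LOC543385, a Gli-B2 gene, and Ta.15268.1.S1_x_at to LOC543211, named gli-2. In the RefSeq assembly of Chinese Spring 6 protein-coding genes lie between LOC543210 and LOC543212. Ta.27778.4.S1_x_at, Ta.27778.2.S1_x_at, Ta.24114.11.S1_x_at and Ta.27778.6.S1_x_at had no gene in the annotation, and 4 of the 9 probe sets share 1 UniGene cluster. The suffix _x_at, which marks probe sets that may hybridise to similar transcripts, was carried by 8 of the 9, so the probe sets are not 9 independent genes.

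Values are log2 signals from which the probe set's own median over the 36 arrays has been taken off. A value of 0 is therefore the middle of that probe set's arrays, and no comparison of level between probe sets is possible. The number of arrays limits the precision, and spreads are SDs over 3 arrays. Because whole caryopses were used, fewer endosperm cells and less RNA per cell cannot be told apart.

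Some arrays went against their labels. The probe set of granule-bound starch synthase I in the study's list, Ta.24114.7.A1_at, had values from 6.78 to 7.26 on the arrays labelled Lok1 7 DAA and from -3.27 to -1.51 on the other 6 Lok1 arrays. On the arrays labelled WH291 14 DAA it had values from -1.83 to -1.01, against 1.01 to 5.93 on the other 6 WH291 arrays. Probe sets of dividing tissue had medians of 2.24, 0.55 and 0.15 on the Lok1 7 DAA arrays, against 1.88 to 3.10 in the other varieties at that stage. Embryo and desiccation probe sets had -7.00, -6.24 and -4.27, against -7.90 to -6.80. Replicates 2 and 3 thus also stood apart from the other varieties at their stage. The labels were kept. Where the comparison allowed it, results were also computed without the 6 arrays labelled Lok1 7 DAA or WH291 14 DAA. Contrasts that need those arrays, such as the change from 7 to 14 DAA in Lok1 or WH291, have no value without them. The 3 probe sets of the BioB control were at a median of 0.81 to 1.71 on the C306 arrays at 28 DAA and of -3.58 to -2.53 on the other 9 arrays of that stage. At 7 and 14 DAA the group means of this median were -0.23 and 0.04 in Lok1 and -0.03 and 0.34 in Sonalika. They were 0.23 and 0.32 in WH291 and -0.32 and 0.59 in C306. Changes to 28 DAA thus cross a drop in the control in Lok1, Sonalika and WH291 but not in C306.

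The alpha-gliadin signal was lowest at 7 DAA in the poor varieties and, in the mean of each variety, above the middle value of 0 at 14 DAA. At 28 DAA it was high in C306 and Sonalika but lower and scattered in Lok1 and WH291. The median over the 9 probe sets was -9.02 ± 1.80 (SD, n = 3) in WH291 and -7.05 ± 3.84 in Sonalika at 7 DAA, against -1.64 ± 1.21 in C306 and -0.47 ± 1.24 in Lok1. At 14 DAA it lay between 0.41 ± 0.52 in WH291 and 1.00 ± 0.14 in Sonalika. Single arrays of that stage ran from -0.13 on WH291 replicate 3 to 1.23 on Lok1 replicate 1. At 28 DAA the median was 0.89 ± 0.48 in Sonalika and 0.36 ± 0.05 in C306, against -2.73 ± 2.67 in Lok1 and -3.17 ± 1.83 in WH291. In the order of the 12 groups, the 6 highest ran from Sonalika at 14 DAA to C306 at 28 DAA, and each was within 1 pooled SD of its neighbour. The gap between WH291 at 28 DAA and Sonalika at 7 DAA, 3.88, was the only step larger than the pooled SD of its 2 groups, which was 3.01.

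**Figure D1:**
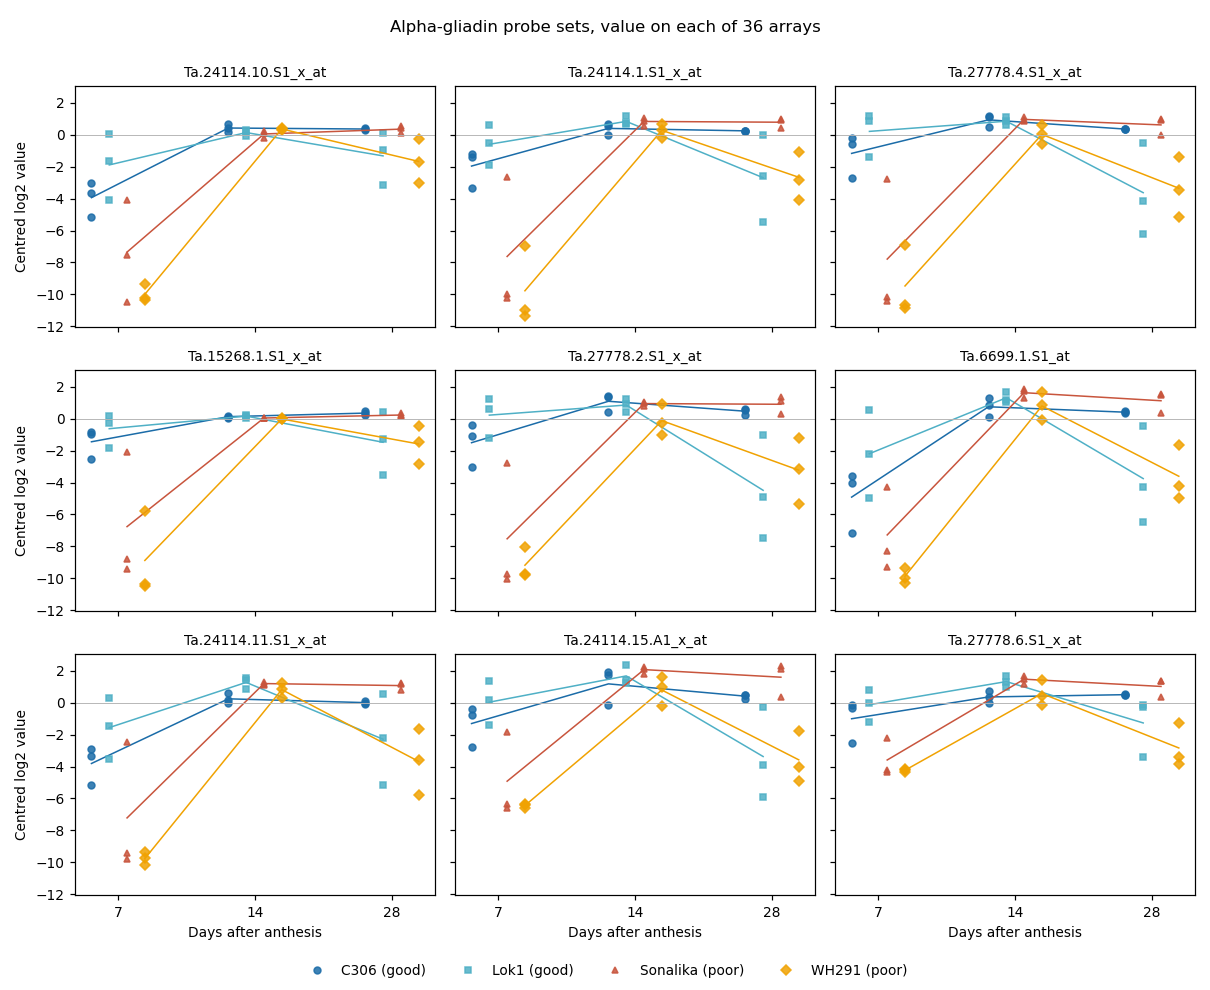
Centred log2 value of the 9 alpha-gliadin probe sets (vertical axis) on each array at 7, 14 and 28 DAA (horizontal axis, stages evenly spaced), with 1 symbol per array, 1 colour per variety, and lines through the means of 3 arrays. At 7 DAA the arrays of WH291 and 2 of the 3 of Sonalika lie lowest in every panel, and at 28 DAA those of Lok1 and WH291 spread downwards.

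The groups came in a shared order at the bottom in all 9 probe sets. WH291 at 7 DAA was lowest and Sonalika at 7 DAA next in each of them. The third lowest group differed. It was C306 at 7 DAA for both probe sets of LOC543212 and for Ta.24114.11.S1_x_at, and Lok1 or WH291 at 28 DAA for the other 6.

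At 7 DAA the good and the poor varieties stood apart, which is what put these probe sets on the study's list, so the difference is described without a test. The median difference of Good minus Poor over the 9 probe sets was 5.81 at 7 DAA, 0.06 at 14 DAA and -0.27 at 28 DAA. At 7 DAA it ran from 3.35 at Ta.27778.6.S1_x_at, the probe set closest to the 10-fold bound of 3.32, to 8.15 at Ta.27778.4.S1_x_at. No alpha-gliadin probe set just outside the bound is named in the sources used here. Without the arrays labelled Lok1 7 DAA and WH291 14 DAA, the median difference at 7 DAA was 4.73, with C306 alone standing for the good varieties. At 14 DAA the sign turned, to -0.22, without those arrays, and leaving out single arrays gave -0.09 to 0.13. Leaving out single arrays gave 5.21 to 7.02 at 7 DAA and -0.92 to 0.65 at 28 DAA, where the sign turned when replicate 3 of Lok1 at 28 DAA was left out.

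The arrays behind that difference were uneven. In Ta.24114.15.A1_x_at, the probe set of the Gli-B2 gene, the WH291 arrays at 7 DAA had values of -6.41, -6.32 and -6.60 and the Sonalika arrays -6.62, -6.32 and -1.81. The C306 arrays had -0.77, -0.37 and -2.78 and the Lok1 arrays 0.14, 1.38 and -1.42 at that stage. Sonalika replicate 3 thus lay with the lower arrays of the good varieties, and the other 5 arrays of the poor varieties lay within 0.302 of each other.

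The same array was the highest of its group in all 9 probe sets, though not by the same step. In Ta.24114.10.S1_x_at the 3 arrays were almost evenly spaced, at -10.46, -7.53 and -4.06. In Ta.24114.1.S1_x_at, the probe set of LOC543210, Sonalika had -10.26, -9.97 and -2.65 at 7 DAA. On replicate 3 the median of the 9 probe sets was -2.65, against -9.73 and -8.77 on the other 2 arrays, and the 18 gamma-gliadin probe sets had a median of -2.42 against -8.20 and -7.52. The 3 endosperm probe sets outside gluten, found by the annotation's gene names, had a median of 1.47 on that array and of -0.27 and -0.17 on the other 2. The 26 probe sets of dividing tissue, mostly histones, were at 1.88 there and at 2.11 and 1.88 on the others. The single probe set of the green pericarp, the outer layer of the young grain, was at 1.17 there and at 2.08 and 2.14 on the others.

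In the other groups of 7 DAA the array with the highest alpha-gliadin median also had the lowest pericarp value. The pericarp probe set had 1.10, 2.79 and 3.70 on the WH291 arrays, whose alpha-gliadin medians were -6.95, -9.96 and -10.16. In C306 it had 1.39, 0.61 and 2.69 beside alpha-gliadin medians of -1.07, -0.83 and -3.03, and in Lok1 it had 0.50, 0.01 and 1.64 beside -0.24, 0.64 and -1.81. The part of these lists in the alpha-gliadin values was not tested.

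The lowest arrays bunched closely in some probe sets and not in others. Over the 5 arrays of the poor varieties at 7 DAA other than Sonalika replicate 3, Ta.27778.6.S1_x_at ranged over 0.216 and Ta.24114.15.A1_x_at over 0.302. Ta.15268.1.S1_x_at ranged over 4.65 and Ta.24114.1.S1_x_at over 4.42 on the same arrays. In the last 2 probe sets WH291 replicate 1, at -5.81 and -6.95, lay above replicates 2 and 3, which had -10.37 and -10.46 in the first and -11.37 and -11.01 in the second. The 2 probe sets with the tight lower end also had the smallest spans over all 36 arrays, 6.07 and 8.98, against 10.9 to 12.5 in the other 7.

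From 7 to 14 DAA the alpha-gliadin genes rose at all 9 probe sets in Sonalika and in WH291, at 3 in C306 and at 1 in Lok1. Over all 60048 probe sets tested with limma, 12.2% rose in Sonalika, 12.3% in WH291, 6.91% in C306 and 8.98% in Lok1. The median change of the 9 was 8.42 in Sonalika, 9.49 in WH291, 2.48 in C306 and 1.45 in Lok1, while the median of all probe sets lay between -0.05 and -0.01. None of the 9 fell in any variety, against 14.9%, 16.3%, 10.4% and 11% of all probe sets. The 7 DAA values of all varieties entered the choice of the list, those of the poor varieties by being low. Changes from 7 DAA are therefore not independent of the choice in any variety. The contrast between the counts of good and poor varieties is not independent of it either. Other lists moved over the same span. In C306, Lok1, Sonalika and WH291, 9, 9, 9 and 8 of the 10 embryo and desiccation probe sets rose and 21, 13, 23 and 22 of the 26 dividing tissue probe sets fell. Of the 3 endosperm probe sets outside gluten, limma called 1 higher, in WH291, and 1 lower in each of C306, Sonalika and WH291. The part of these lists in the rises was not tested.

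Ta.6699.1.S1_at, of LOC543212 and the only member without the _x_at suffix, was the 1 probe set called in all 4 varieties. In C306 its arrays went from -4.01, -3.57 and -7.15 at 7 DAA to 0.85, 1.30 and 0.10 at 14 DAA, a change of 5.66 (SE 1.26, adjusted p = 0.00179). In Lok1 they went from -2.20, 0.56 and -4.94 to 1.70, 1.18 and 1.05, a change of 3.50 (adjusted p = 0.0486). The stages did not overlap in either variety. In Sonalika the change was 8.91 and in WH291 10.66, with no overlap in either.

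The other probe set of LOC543212, Ta.24114.10.S1_x_at, rose by 4.36 in C306 (SE 1.01, adjusted p = 0.00256), from -3.65, -3.01 and -5.16 to 0.19, 0.68 and 0.40. In Lok1 it had -1.67, 0.08 and -4.09 at 7 DAA and 0.32, -0.08 and 0.17 at 14 DAA, and the stages overlapped. Ta.24114.11.S1_x_at, an alpha/beta-gliadin with no gene in the annotation, rose by 4.05 in C306 (SE 1.30, adjusted p = 0.0299), from -3.37, -2.88 and -5.18 to 0.14, 0.59 and 0.00. These 3 probe sets were the ones that were low in C306 at 7 DAA. In the other 6 the means of C306 at 7 DAA went no lower than -1.96, and their changes of 1.36 to 2.59 did not pass the test. The count of 3 in C306 went to 2 when replicate 1 or 3 of C306 at 7 DAA was left out. It also went to 2 without any single C306 array of 14 DAA.

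The call in Lok1 rests on the arrays labelled Lok1 7 DAA, and it remained in 9 of the 36 fits with 1 array left out. The rises in WH291 from 7 to 14 DAA rest on the arrays labelled WH291 14 DAA. Between 7 and 28 DAA, a comparison added after the data had been seen that avoids the WH291 14 DAA arrays, 8 of the 9 rose in WH291, where 18% of all probe sets did, with a median of 6.12. All 9 rose in Sonalika (median 8.29, background 14.4%) and the same 3 as before in C306 (median 1.97, background 13.3%). None of the 9 fell over this span in C306, Sonalika or WH291, against 16.4%, 16.9% and 19% of all probe sets, and none rose in Lok1, against 16.2%. After cyclic loess normalization between arrays, however, C306 had 0 rises and 5 falls over this span (median -3.22), and WH291 had 0 rises (median -0.04). When only the compared groups were fitted, all 9 rose in C306. The shares of all probe sets given here belong to the fit of the deposited values on all 36 arrays.

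Normalization also changed the counts from 7 to 14 DAA. After cyclic loess the rises were called at 2 probe sets in Sonalika, 5 in WH291 and 0 in C306 and Lok1, and the changes of the 3 probe sets in C306 turned to -1.43 for Ta.24114.10.S1_x_at, -0.42 for Ta.6699.1.S1_at and -1.53 for Ta.24114.11.S1_x_at. In all, 7 of the 9 changes turned sign in C306 and 7 in Lok1, with medians of -1.53 and -2.31, and 0 in Sonalika and WH291. On centred values this method fits a curve along the mean of each probe set, and only 1.13% of the probe sets past the filter had a mean at or below -0.65, the highest of the members' means. The cause of the change was not tested. With weights for each array, the count of rises in C306 was 5.

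**Figure D2:**
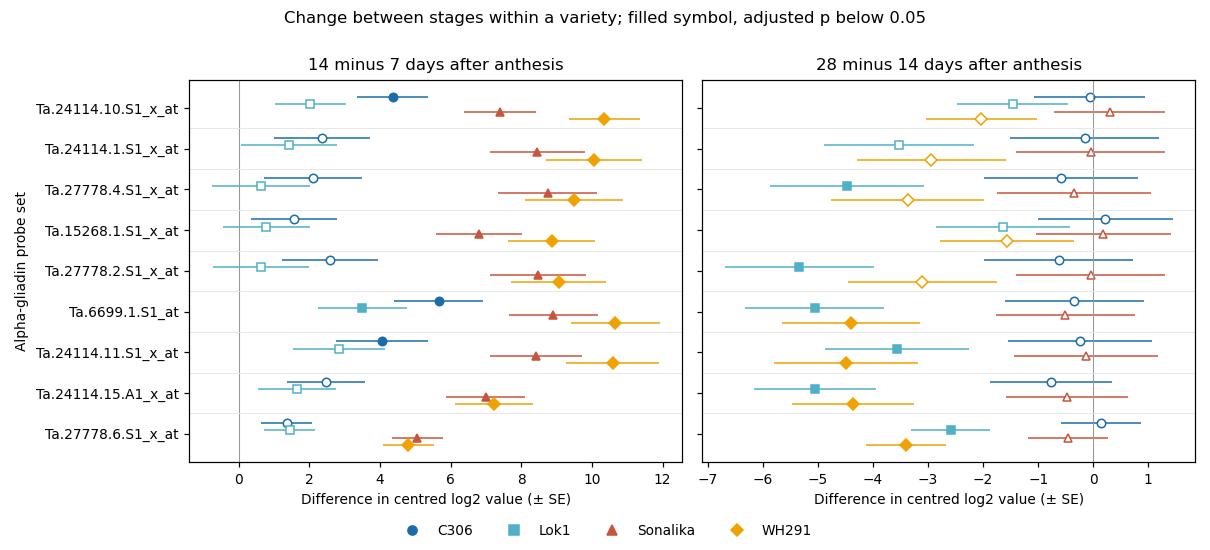
Change in centred log2 value (horizontal axis, mean difference with its SE from limma) of the 9 alpha-gliadin probe sets (vertical axis) between 7 and 14 DAA and between 14 and 28 DAA, with 1 symbol per variety, filled where the adjusted p is below 0.05. Sonalika and WH291 are filled at all 9 on the left, and only Lok1, at 6, and WH291, at 4, are filled on the right.

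Between 14 and 28 DAA alpha-gliadin signal fell in Lok1, a good variety, and in WH291, a poor one. In Lok1 6 of the 9 probe sets fell (median of the 9, -3.56) and in WH291 4 of the 9 (median -3.37), where 12.9% and 12.4% of all probe sets fell. In C306 and Sonalika limma called 0 of the 9 in either direction and 0 had an unadjusted p below 0.05, with medians of -0.24 and -0.13. There 8.59% and 8.52% of all probe sets fell, and 8.95% and 8.82% rose. None rose in Lok1 or WH291, against 14.2% and 14.6%. The BioB control also dropped between these stages in Lok1, WH291 and Sonalika. The study's RNA integrity numbers, a measure of how intact the RNA is, were lower for the Lok1 samples of 28 DAA than for any other. The part of either in the falls was not tested.

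The fall was called in both varieties at Ta.6699.1.S1_at, Ta.24114.11.S1_x_at, Ta.24114.15.A1_x_at and Ta.27778.6.S1_x_at, and in Lok1 also at Ta.27778.4.S1_x_at and Ta.27778.2.S1_x_at. In Ta.24114.15.A1_x_at the Lok1 arrays went from 2.36, 1.24 and 1.44 at 14 DAA to -0.29, -3.93 and -5.90 at 28 DAA. This was a change of -5.05 (SE 1.11, adjusted p = 0.000834), with no overlap of the stages. In WH291 the arrays of this probe set went from 1.61, 1.00 and -0.23 to -4.88, -1.80 and -4.05, a change of -4.37 (SE 1.11, adjusted p = 0.00312).

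In Ta.27778.6.S1_x_at the WH291 arrays had 1.41, 0.44 and -0.13 at 14 DAA and -3.86, -1.25 and -3.39 at 28 DAA. Its change of -3.41 (SE 0.72, adjusted p = 0.000549) had the lowest adjusted p of the falls. In Lok1 this probe set had -0.13, -0.29 and -3.38 at 28 DAA, so 2 of the 3 arrays lay near 0 and the third far below.

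Ta.27778.2.S1_x_at had the largest fall of the 9 in Lok1, -5.34 (SE 1.35, adjusted p = 0.00330), from 1.23, 0.45 and 0.90 to -1.04, -4.93 and -7.48. Of the probe sets with Gli-D2 names, Ta.24114.10.S1_x_at and Ta.24114.1.S1_x_at were not called in either variety, while Ta.6699.1.S1_at was called in both. The gli-2 probe set Ta.15268.1.S1_x_at was not called in either. For Ta.15268.1.S1_x_at the Lok1 arrays had 0.39, -1.28 and -3.54 at 28 DAA, a change of -1.64, and the WH291 arrays -2.82, -0.47 and -1.45, a change of -1.57. The highest Lok1 array thus overlapped the 14 DAA arrays, which had 0.20, 0.04 and 0.26.

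The arrays of 1 group moved together over the whole family at 28 DAA. In Lok1 the median over the 9 was -0.13 on replicate 1, -2.61 on replicate 2 and -5.46 on replicate 3, and in WH291 it was -4.88, -1.25 and -3.39. The gamma-gliadin median on the Lok1 arrays was 0.19, -2.19 and -4.20 in the same order. Endosperm probe sets outside gluten had medians of -1.30, -2.21 and -2.54 on the same Lok1 arrays and of -2.03, -1.60 and -2.27 in WH291, against -0.65 to -0.48 in C306 and -1.40 to 0.48 in Sonalika. At 2 of the 3 they fell from 14 to 28 DAA in C306, Lok1 and WH291 alike, and at 0 of the 3 in Sonalika. The median of the 10 embryo and desiccation probe sets lay between 1.05 and 1.86 on all 12 arrays of this stage, and the part of these markers in the falls was not tested.

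The number of falls depended on single arrays. Leaving out replicate 3 of Lok1 at 28 DAA gave 3 falls in Lok1 and a median of -2.14, and leaving out replicate 1 of WH291 at that stage gave 2 in WH291. The third Sonalika array of 7 DAA takes part only through the shared estimate of the spread, and WH291 had 7 falls when it was left out. When only the arrays of the compared groups were fitted, it was 8 in WH291. The WH291 result rests on the arrays labelled WH291 14 DAA, while Lok1 kept its count of 6 without the 6 doubted arrays.

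Within a quality class limma called differences between the varieties only at 28 DAA. C306 was higher than Lok1 at 3 of the 9 at 28 DAA (median of the 9, 2.93), where 6.42% of all probe sets were higher. Sonalika was higher than WH291 at 4 of the 9 (median 3.97), where 3% were. None of the 9 was lower in either pair at that stage, against 6% and 3.13%.

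Between C306 and Lok1 the 3 were Ta.27778.2.S1_x_at, Ta.6699.1.S1_at and Ta.24114.15.A1_x_at. In Ta.27778.2.S1_x_at the C306 arrays had 0.26, 0.56 and 0.60 and the Lok1 arrays -1.04, -4.93 and -7.48, a difference of 4.95 (SE 1.35, adjusted p = 0.0139). In Ta.6699.1.S1_at C306 had 0.47, 0.36 and 0.40 and Lok1 -0.47, -4.28 and -6.49, a difference of 4.16 (SE 1.26, adjusted p = 0.0274). The 3 arrays of C306 lay close together and above every Lok1 array in both.

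The 4 between Sonalika and WH291 were Ta.6699.1.S1_at, Ta.24114.11.S1_x_at, Ta.24114.15.A1_x_at and Ta.27778.6.S1_x_at. In Ta.27778.6.S1_x_at Sonalika had 1.38, 0.34 and 1.34 and WH291 -3.86, -1.25 and -3.39, a difference of 3.85 (SE 0.72, adjusted p = 0.00101). In Ta.24114.15.A1_x_at Sonalika had 2.32, 0.37 and 2.11 and WH291 -4.88, -1.80 and -4.05, a difference of 5.18 (SE 1.11, adjusted p = 0.00366). Sonalika replicate 2 was the lowest of its group in both but above all WH291 arrays.

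The C306 and Lok1 arrays of 28 DAA also differed in the BioB control, as given above, whereas those of Sonalika and WH291 shared its low level. The part of the control in the difference was not tested, nor was that of the lower RNA integrity numbers of the Lok1 samples. The count between C306 and Lok1 fell to 0 when replicate 2 or replicate 3 of Lok1 at 28 DAA was dropped, rose to 6 when its replicate 1 was, and was 1 when any single C306 array of that stage was. Between Sonalika and WH291 dropping replicate 1 or 3 of either variety at that stage gave 2, and dropping the third Sonalika array of 7 DAA gave 7. The median of C306 minus Lok1 went from 2.93 to 1.55 when the third Lok1 array of that stage was dropped and to 4.28 when the first was. With weights for each array the count was 6 between C306 and Lok1, and when only the compared groups were fitted it was 1.

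At 7 DAA limma called 0 of the 9 between C306 and Lok1, with 1 at an unadjusted p below 0.05, and 0 between Sonalika and WH291, with 2. The median of C306 minus Lok1 was -1.38, and 3.22% of all probe sets were lower and 6.17% higher. Its sign turned with cyclic loess, to 0.80, and it went to -0.68 when the third C306 array was dropped. When replicate 3 of Lok1 at this stage, of an unsure label, was left out, 2 of the 9 were called lower in C306 and the median was -2.19. The median of Sonalika minus WH291 was 2.12, with 5.18% of all probe sets higher and 6.21% lower. That median was -0.05 when the third Sonalika array was dropped, and a single probe set was called higher when the first array of Sonalika or of WH291 was. At 14 DAA limma called 0 in both pairs and 0 had an unadjusted p below 0.05, with medians of -0.44 for C306 minus Lok1, which turned to 0.95 with cyclic loess, and 0.83 for Sonalika minus WH291. Of all probe sets 3.59% were higher and 2.89% lower in C306 than in Lok1 at that stage, and 4.31% higher and 4.07% lower in Sonalika than in WH291. The C306 minus Lok1 values at 7 DAA rest on the arrays labelled Lok1 7 DAA. The Sonalika minus WH291 values at 14 DAA rest on the arrays labelled WH291 14 DAA.

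**Figure D3:**
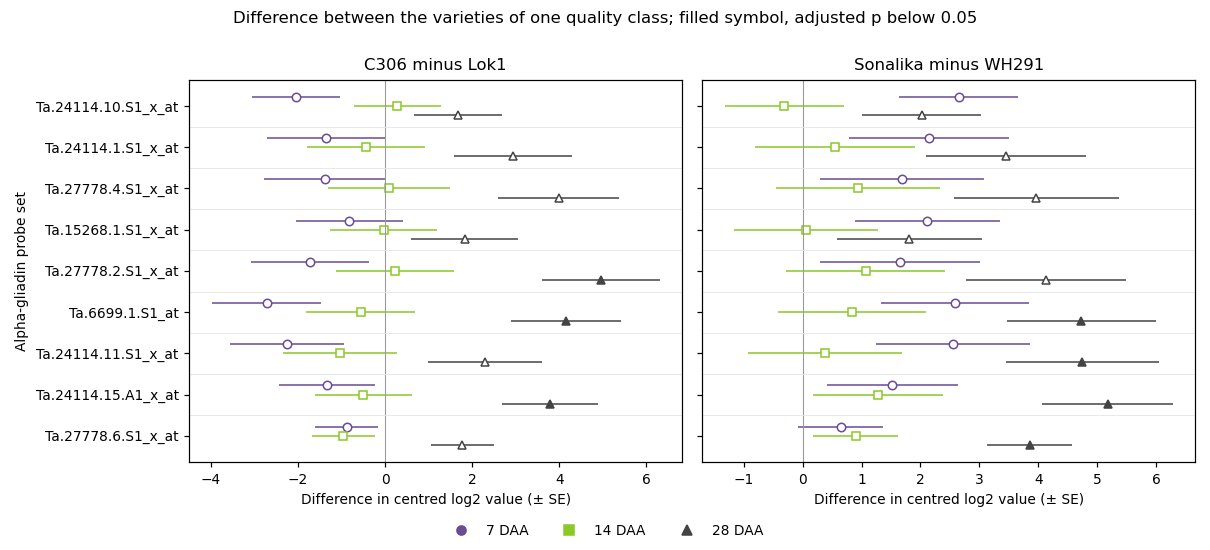
Difference in centred log2 value (horizontal axis, mean with its SE from limma) of the 9 alpha-gliadin probe sets (vertical axis) between C306 and Lok1 and between Sonalika and WH291, with 1 symbol per stage, filled where the adjusted p is below 0.05. Filled symbols appear only at 28 DAA, 3 on the left and 4 on the right.

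Whether the 14 to 28 DAA change itself differed between the varieties of a class was tested as well. Limma called 0 of the 9 for C306 against Lok1, with 4 at an unadjusted p below 0.05 and a median difference in change of 3.37, and 0 for Sonalika against WH291, with 4 and a median of 3.02. Of all probe sets 2.69% and 1.83% were called higher and 3.11% and 3.40% lower. The result for Sonalika against WH291 rests on the arrays labelled WH291 14 DAA. With weights for each array 4 were called for C306 against Lok1 and 1 for Sonalika against WH291, and with only the compared groups 4 for the second pair. The first pair had 3 calls when replicate 1 of Lok1 at 28 DAA was dropped, and its median was 1.99 when replicate 3 was. The second had 1 when replicate 2 of WH291 or replicate 3 of Lok1, both at 28 DAA, was. From 7 to 14 DAA 0 of the 9 were called in both pairs, with 0 and 1 at an unadjusted p below 0.05 and medians of 1.22 and -1.59. The first median was 0.38 when the second Lok1 array of 7 DAA was dropped and 2.21 when the third was. The second turned to 0.89 when the third Sonalika array of 7 DAA was dropped and went to -2.74 when the first was. Of all probe sets 1.59% and 3.74% were called higher in those and 2.34% and 2.85% lower. The first rests on the arrays labelled Lok1 7 DAA and the second on those labelled WH291 14 DAA. Dropping replicate 1 of Sonalika at 7 DAA gave the second pair 1 call, lower in Sonalika.

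From 7 to 28 DAA, a comparison added after the data had been seen, the change in C306 exceeded that in Lok1 at 3 of the 9 probe sets (background 3.93%) and fell short of it at none (background 5.23%). At Ta.6699.1.S1_at the difference in change was 6.88 (adjusted p = 0.0130), at Ta.27778.2.S1_x_at 6.68 (adjusted p = 0.0249) and at Ta.24114.15.A1_x_at 5.12 (adjusted p = 0.0365). In Lok1 itself 3 of the 9 fell from 7 to 28 DAA, where 17.4% of all probe sets fell. These counts rest on the arrays labelled Lok1 7 DAA and on the Lok1 samples of 28 DAA, which had the lowest RNA integrity numbers. The count of 3 differences went to 0 when replicate 3 of C306 at 7 DAA, replicate 2 of Lok1 at 7 DAA or replicate 3 of Lok1 at 28 DAA was dropped, and to 1 when replicate 2 of Lok1 at 28 DAA was. It went to 5 when replicate 1 of Lok1 at 28 DAA was dropped and to 6 when the third Sonalika array of 7 DAA was. The count of 3 falls went to 0 when replicate 3 of Lok1 at 28 DAA was dropped, to 1 when its replicate 2 at either 7 or 28 DAA was, and to 0 when only the compared groups were fitted. Between Sonalika and WH291 limma called 0 of the 9 from 7 to 28 DAA, with 2 at an unadjusted p below 0.05 (background 3.46% higher and 4.28% lower).

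At 14 DAA, when alpha-gliadin signal was high in all varieties, the probe sets differed in how far the arrays spread. The 12 arrays of Ta.15268.1.S1_x_at lay between -0.05 and 0.26, a range of 0.309, and those of Ta.24114.10.S1_x_at ranged over 0.868. At the other end, Ta.27778.2.S1_x_at ranged over 2.45 and Ta.24114.15.A1_x_at over 2.58. In the last of these the lowest values were -0.23 on WH291 replicate 3 and -0.14 on C306 replicate 3, the 2 arrays that were lowest in the median over all 9. The 2 probe sets of LOC543212 ranged over 0.868 and 1.96, so 1 gene in the annotation gave different spreads at this stage.

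The 14 DAA arrays of C306 and WH291 were also uneven in the embryo and desiccation list, whose members protect the drying seed. Its median was -7.19, -2.88 and 0.00 on the C306 arrays and -3.31, -5.15 and -2.40 on the WH291 arrays, against 0.11 to 1.32 in Lok1 and Sonalika. The endosperm list outside gluten had medians of 2.61, 1.72 and -0.33 on those C306 arrays and of 1.59, 1.10 and -0.21 on those of WH291. The alpha-gliadin median was 0.67, 0.68 and 0.20 in C306 and 0.91, 0.44 and -0.13 in WH291. In both varieties replicate 3 was thus the lowest in alpha-gliadin and in the endosperm list and the highest in the embryo list. The part of these lists in the alpha-gliadin values was not tested.

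Over the 36 arrays the 9 probe sets had Pearson correlations of 0.854 to 0.992 with each other in their 36 pairs. Within groups, after each group's mean had been taken off, the correlations were 0.661 to 0.989. Over the 36 arrays the closest pair was Ta.27778.4.S1_x_at with Ta.27778.2.S1_x_at, and within groups it was Ta.24114.1.S1_x_at with Ta.27778.4.S1_x_at. The most distant pair was Ta.15268.1.S1_x_at with Ta.27778.6.S1_x_at in both. All are descriptions, since the probe sets share arrays and may share transcripts.

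The probe sets outside the family with the profile most like the mean of the 9 came from other grain proteins. The highest correlations over 36 arrays belonged to a beta-amylase (Ta.27780.2.A1_x_at, r = 0.992), which splits starch, a truncated HMW glutenin subunit (Ta.24963.1.S1_x_at, r = 0.991) and a gamma-gliadin (Ta.6175.1.S1_x_at, r = 0.991). A gliadin/avenin-like seed protein (Ta.23142.11.S1_x_at) and an avenin-like protein (Ta.2448.1.S1_at) each reached 0.989. Of the 60039 probe sets compared, 34 had a correlation of 0.95 or more, and all 34 were in the study's list of 236. That list was chosen by a difference between good and poor varieties, and the profile of the 9 carries the same difference at 7 DAA, so the overlap is largely fixed by the choice. Outside the list the 5 highest were TaAffx.128418.1.S1_x_at (0.934), Ta.12905.2.S1_at (0.925), Ta.4155.1.S1_s_at, Ta.435.1.S1_at and Ta.10098.1.S1_x_at (0.917), none with a gene in the annotation.

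The other gluten classes of the list, chosen by the same 10-fold bound, are given for comparison. From 7 to 14 DAA in C306, 6 of 18 gamma-gliadin, 3 of 6 HMW glutenin, 1 of 13 avenin-like, 0 of 9 LMW glutenin and 0 of 1 omega gliadin probe sets rose. Of all probe sets 6.91% rose over this span in C306 and 12.3% in WH291. In WH291 all 18 gamma-gliadin, 9 LMW glutenin and 6 HMW glutenin probe sets rose, with 11 of 13 avenin-like. The median changes in WH291 were 8.48, 8.91, 9.32 and 7.74, beside 9.49 for alpha-gliadin. These WH291 counts and medians rest on the arrays labelled WH291 14 DAA, whose label is in doubt.

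From 14 to 28 DAA in Lok1, 12 of 18 gamma-gliadin, 9 of 13 avenin-like, 3 of 9 LMW glutenin and 2 of 6 HMW glutenin probe sets fell, beside 6 of 9 alpha-gliadin. In WH291 the same classes had 14, 10, 2 and 4 falls. Of all probe sets 12.9% fell over this span in Lok1 and 12.4% in WH291. The single omega gliadin probe set, Ta.23896.1.S1_at, changed by -1.74 in Lok1 and -1.43 in WH291, neither past the test. Ta.28792.1.S1_x_at, a gamma-gliadin, changed by -3.57 in Lok1 and -6.29 in WH291, both past the test. The WH291 falls also rest on the arrays labelled WH291 14 DAA. Differences between the classes were not tested.

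**Figure D4:**
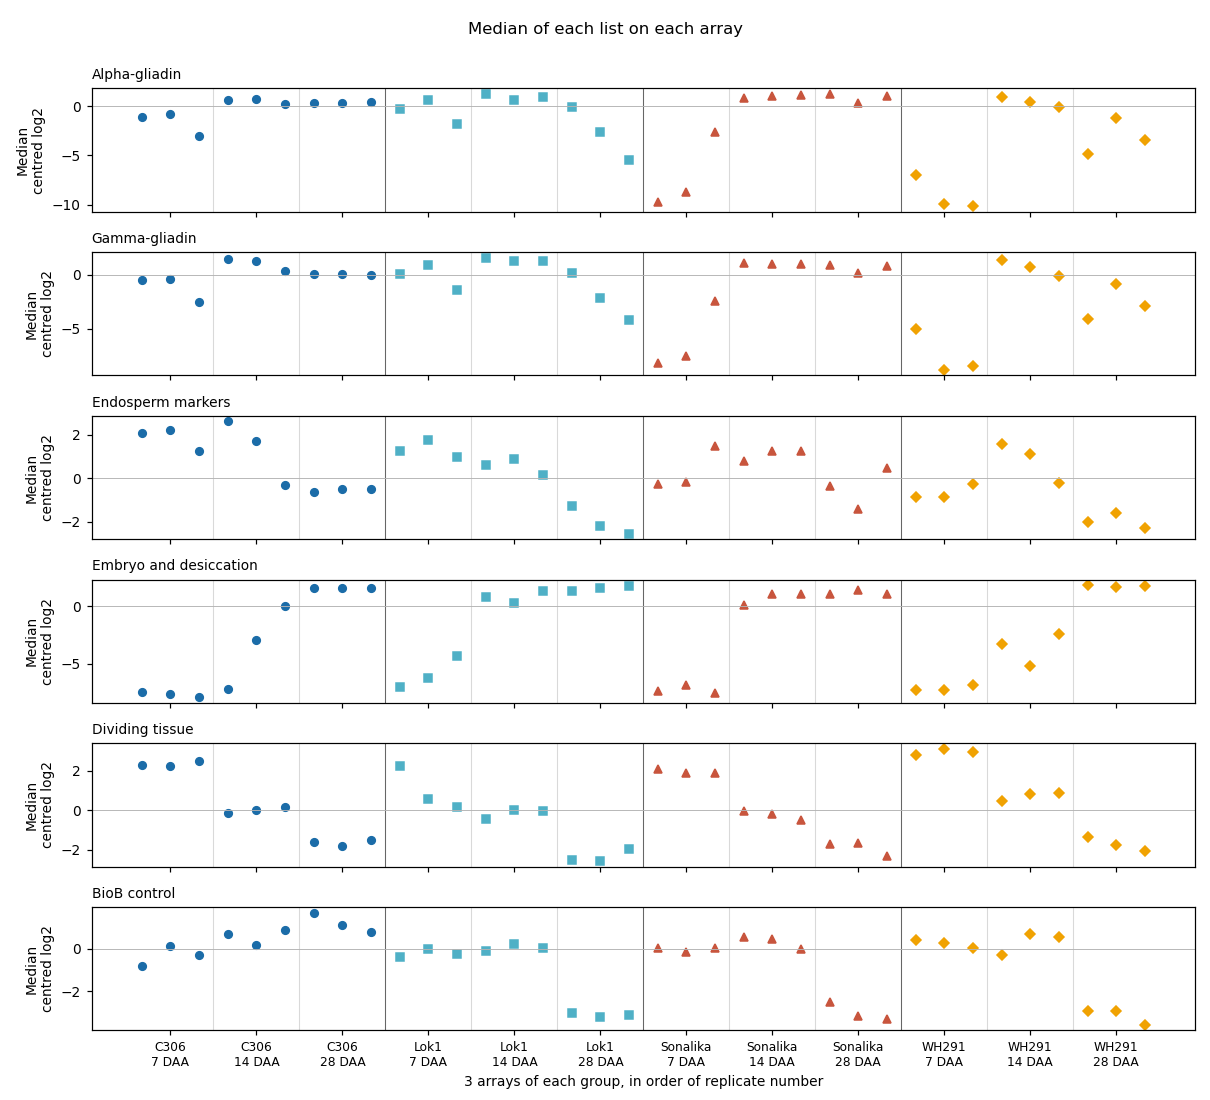
Median centred log2 value (vertical axes) of the alpha-gliadin, gamma-gliadin, endosperm, embryo and desiccation, dividing tissue and BioB control probe sets on each of the 36 arrays (horizontal axis), with 3 arrays per group in order of replicate number. Alpha-gliadin and gamma-gliadin move together array by array, Sonalika 7 DAA replicate 3 stands above the other 2 of its group in both, and the BioB control is low on the 9 arrays of Lok1, Sonalika and WH291 at 28 DAA.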

How the data were processed

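The deposited values are log2 signals: the authors normalized cell intensities from 36 Affymetrix Wheat Genome Arrays with RMA in GeneSpring, and every probe set has a median of 0 over the arrays as deposited. Centring removes the level of each probe set, and the values hold no detection call, background or saturation mark. Replicates are labelled as biological. A probe set stayed in if at least 1 group of quality and stage had all its 6 arrays at or above the 20th percentile of the array, which 60130 did. Of the array's 111 controls, 82 were among them and were left out, which left 60048.

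The 12 groups of variety and stage were fitted to all 36 arrays with limma 3.58.1 in R 4.3.3 (lmFit and eBayes). P-values of a contrast were adjusted by Benjamini and Hochberg's procedure across the 60048 and called at 0.05. On simulated data 94 of 100 changes of 2 and 100 of 100 changes of 4 in log2 were recovered for 14 against 7 DAA in C306. These changes were put on probe sets drawn at random from the 60048, each with its own spread. The recovery therefore does not give the power for the 9 members. Tables were made with pandas 2.3.3. The members, marker lists and comparisons were chosen with earlier results of these data known. Text names all 9 members, the 5 closest profiles in and outside the study's list, and the first of a gluten class. No gene of the planned list of prolamin regulation and folding (0 matched) was found, and 10 probe sets share a cluster number with members without being listed. Gene names come from the array's annotation, of whose 1273 probe sets 1272 were found in the RefSeq assembly IWGSC CS RefSeq v2.1. Arrays with the same replicate number did not deviate together: 41 of 198 such pairs had a correlation above 0.1, with a median of 0.0028. No 2 arrays were duplicates, since at most 0.197% of their values were equal. Alternatives were the filter, cyclic loess, robust variance moderation, array weights, only the compared groups, the 6 doubted arrays left out, a replicate block and each array left out.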

Additional observations from a re-analysis of the deposited data

Results flagged for a closer look

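In the 54 groups of 6 arrays tested (9 probe sets in 2 quality classes at 3 stages), 6 held an array far from the others. Chance flags about 1 in 20 independent groups of 1 population. Here the 9 probe sets share arrays and each group joins 2 varieties, so the count cannot be set against that rate. In 5 of the 6 it was Sonalika 7 DAA replicate 3 among the poor varieties at 7 DAA. That array had -2.80 in Ta.27778.2.S1_x_at, -4.27 in Ta.6699.1.S1_at, -2.45 in Ta.24114.11.S1_x_at, -1.81 in Ta.24114.15.A1_x_at and -2.21 in Ta.27778.6.S1_x_at. The sixth was Lok1 28 DAA replicate 3 among the good varieties, at -3.38 in Ta.27778.6.S1_x_at.

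Of 54 differences in change between varieties of a class, 3 passed the test. They are the changes from 7 to 28 DAA in C306 minus Lok1 at Ta.24114.15.A1_x_at (5.12), Ta.27778.2.S1_x_at (6.68) and Ta.6699.1.S1_at (6.88), and they rest on the arrays labelled Lok1 7 DAA.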

How the results depend on the processing

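The calls depended most on normalization and on single arrays. Shares of all probe sets are given only for the fit of the deposited values on all 36 arrays, not for the alternatives. Cyclic loess gave 0, 0, 2 and 5 rises from 7 to 14 DAA in C306, Lok1, Sonalika and WH291, and from 7 to 28 DAA 0, 2 and 0 rises in C306, Sonalika and WH291 with 5 falls in C306 and 8 in Lok1. It gave 0 calls for the 7 to 28 DAA change of C306 against Lok1 and 2 for Sonalika against WH291, and a Good minus Poor median of 4.03 at 7 DAA. It turned the sign of 56 of the 216 values (9 probe sets in 24 comparisons), of which 39 were called in neither fit and 17 in at least 1, and the cause was not tested. The medians of C306 minus Lok1 at 7 and 14 DAA turned to 0.80 and 0.95. Of the 17, those from 7 to 14 DAA were Ta.24114.10.S1_x_at (-1.43), Ta.24114.11.S1_x_at (-1.53) and Ta.6699.1.S1_at (-0.42) in C306 and Ta.6699.1.S1_at (-1.13) in Lok1. Those from 7 to 28 DAA were Ta.15268.1.S1_x_at (-3.85), Ta.24114.1.S1_x_at (-4.20), Ta.24114.10.S1_x_at (-3.02), Ta.24114.11.S1_x_at (-3.22), Ta.27778.2.S1_x_at (-4.28), Ta.27778.4.S1_x_at (-4.71) and Ta.6699.1.S1_at (-2.38) in C306, Ta.24114.10.S1_x_at (-3.69) in Lok1, and Ta.24114.11.S1_x_at (-1.38), Ta.24114.15.A1_x_at (-0.036), Ta.27778.2.S1_x_at (-0.77), Ta.27778.4.S1_x_at (-0.58) and Ta.6699.1.S1_at (-1.86) in WH291. Array weights gave 5 rises in C306 and 0 in Lok1 from 7 to 14 DAA, 6 for C306 over Lok1 at 28 DAA, and 4, 1 and 2 for the changes from 14 to 28 DAA in C306 against Lok1, in Sonalika against WH291, and from 7 to 28 DAA in Sonalika against WH291. Fitting only the compared groups gave 0 rises in Lok1 from 7 to 14 DAA, 8 falls in WH291 from 14 to 28 DAA, 1 for C306 over Lok1 at 28 DAA, 4 for the 14 to 28 DAA change of Sonalika against WH291, 9 rises in C306 and 0 falls in Lok1 from 7 to 28 DAA, and 1 for the 7 to 28 DAA change of C306 against Lok1. Robust moderation gave 0 rises in Lok1 from 7 to 14 DAA, and leaving out the 6 doubted arrays gave 1 for the 7 to 28 DAA change of Sonalika against WH291. The contrasts that need those arrays have no value without them. With 1 array left out, counts ranged from 0 to 2 for rises in Lok1 from 7 to 14 DAA, 3 to 7 and 2 to 7 for falls from 14 to 28 DAA in Lok1 and WH291, and 0 to 3 for falls in Lok1 from 7 to 28 DAA. Rises in C306 ranged from 2 to 3, both from 7 to 14 DAA and from 7 to 28 DAA. Rises in WH291 from 7 to 28 DAA ranged from 7 to 8. Between varieties the counts ranged from 0 to 2 for C306 below Lok1 at 7 DAA, 0 to 6 for C306 over Lok1 at 28 DAA, and 0 to 1 and 2 to 7 for Sonalika over WH291 at 7 and 28 DAA. For differences in change they ranged from 0 to 3 (14 to 28 DAA) and 0 to 6 (7 to 28 DAA) for C306 against Lok1, and from 0 to 1 (7 to 14 DAA), 0 to 1 (14 to 28 DAA) and 0 to 2 (7 to 28 DAA) for Sonalika against WH291. The replicate numbers do not pair the samples by the labels, and 13 of 36 arrays correlated best with their own number. A replicate block left 5 falls in Lok1 from 14 to 28 DAA and changed no other count. The number of arrays and the missing signal levels limit precision.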

Other observations

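Among the 10 probe sets that share a cluster number with a member but are not in the study's list, 2 were singled out after their values had been seen. Both lack a gene in the annotation. In Ta.24114.12.S1_x_at the means at 14 DAA were 6.14 ± 0.28 (SD, n = 3) in Lok1, 6.20 ± 0.08 in Sonalika and 5.84 ± 0.32 in WH291, against -0.06 ± 0.29 in C306. Ta.24114.18.S1_x_at had 6.41 ± 0.27, 6.36 ± 0.11 and 6.06 ± 0.18 in those varieties and -0.03 ± 0.91 in C306. At 28 DAA Sonalika stayed at 5.89 and 6.08, Lok1 had 2.28 ± 2.39 and 2.92 ± 2.71, and WH291 had -2.02 ± 1.64 and -3.47 ± 0.60. At 7 DAA the means of all 4 varieties lay between -3.83 and -0.79 in the 2 probe sets, with single arrays up to 0.58. The high values in WH291 rest wholly on the arrays labelled WH291 14 DAA, whose label is in doubt. The other 8 included 4 of LOC543484 and 1 of LOC100037526, and 4 of the 8 ranged over 2.01 or less on the 36 arrays.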
